A study of Homo sapiens with 4 samples.

Results

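Glucose uptake, glycolysis and the fate of pyruvate were followed through 34 genes in 2 established human lung adenocarcinoma (LAD) cell lines. The 34 were a list of symbols grouped by function, and all of them were found among the 60558 Ensembl genes of the deposited files. By role, 2 encode glucose transporters, 8 the enzymes of upper glycolysis, 3 the PFKFB regulators of phosphofructokinase, 8 the enzymes of lower glycolysis, 4 lactate dehydrogenase subunits and monocarboxylate transporters, 7 proteins that govern the entry of pyruvate into mitochondria, and 2 enzymes that run the pathway backwards. The cells were A549 and HCC827, each transduced either with myr-AKT1, a constitutively active form of the kinase AKT1 carrying a signal for attachment to membranes, or with an empty vector. The study sequenced these cells to find long non-coding RNAs that respond to overactive AKT, and the coding genes described here were measured in the same libraries. One RNA library was sequenced for each construct in each line, and the 4 are called A549-myr-AKT1 and A549-vector, and HCC827-myr-AKT1 and HCC827-vector. The sources used here do not say whether the transduced cells were a pool or a clone, and no time after transduction is given in the labels.

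Cells take up glucose through facilitative transporters, trap it with hexokinase and split it in glycolysis to pyruvate. Pyruvate is either reduced to lactate, which leaves the cell through monocarboxylate transporters, or is carried into mitochondria and oxidised by pyruvate dehydrogenase, a complex that the PDK kinases switch off. AKT is known as a kinase that promotes glucose uptake and glycolysis, much of it through proteins rather than transcripts, and several of these genes are textbook targets of the transcription factors HIF1 and MYC.

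The AKT1 gene, for which reads of the construct and of the cell's own copy were not separated, was 0.57 higher on the log2 scale in A549-myr-AKT1 than in A549-vector (95% counting interval 0.51 to 0.63) and 1.14 higher in HCC827 (1.07 to 1.21). Recovered reads per library ranged from 16322183 to 33530317. Epithelial markers summed to 4951 CPM (counts scaled to the recovered reads of the library) in A549-myr-AKT1 and 5875 in A549-vector. They summed to 3720 with myr-AKT1 and 6830 with vector in HCC827, where KRT8 had 658 against 2180 CPM and KRT18 had 564 against 1801. EPCAM and KRT19 were lower there as well, while CDH1 was higher, at 1102 against 839 CPM. In A549, KRT8 and KRT18 were lower with myr-AKT1. EPCAM (28.3 against 18.5 CPM), KRT19 (72.3 against 11.3) and CDH1 (365 against 137) were higher. The summed level on the same scale was 0.915 to 27.5 for leukocyte markers, 0.447 to 6.74 for endothelial and 0.306 to 14.3 for fibroblast markers. The highest leukocyte and fibroblast sums were both in A549-myr-AKT1, where CD14 had 685 reads against 40 in A549-vector and LUM had 304 against 26. The general leukocyte marker PTPRC had at most 7 reads in any library, and the T-cell marker CD3E had 0. Of the endothelial markers in the A549 pair, PECAM1 had 61 reads against 13, CDH5 had 59 against 1 and VWF had 0 against 1. The part of these markers in the differences below was not tested.

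Differences within a line are log2 ratios of normalized counts, with myr-AKT1 cells over vector cells. A normalized count is the number of reads of a gene divided by a size factor for the library, set within each line, so levels are compared between lines only in CPM or in RPKM, where reads are scaled to exon length as well. As there was 1 library per condition, no test could be made within a line, and the 95% Clopper-Pearson intervals given with the ratios cover the error of counting reads and no variation from culture to culture. In bulk RNA, a change in the number of cells that express a gene and a change in RNA per cell cannot be told apart.

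In A549 cells most of the genes were higher with myr-AKT1, while in HCC827 cells most were lower. In A549, 33 genes (all but FBP1) passed the minimum, a normalized count of 10 or more as the mean of the pair. Of these, 25 were above 0 and 8 below, and their median log2 fold change was 0.41 beside -0.03 for all 18750 genes past the same minimum. In HCC827 all 34 passed, 13 were above 0 and 21 below, and the median was -0.20 beside -0.04 for all 17358 genes. In A549-myr-AKT1, 7 genes were at least 2-fold higher, namely HK2, PFKFB4, ALDOC, PGK1, ENO2, SLC16A3 and PDK1, where 15.1% of all genes were, and 0 were at least 2-fold lower, where 9.87% of all genes were. In HCC827-myr-AKT1, 4 genes were at least 2-fold higher (SLC2A3, ENO3, FBP1 and PCK2), beside 14.1% of all genes, and 2 were at least 2-fold lower (ENO1 and PKM), beside 12.4%. Past 4-fold there were 2 genes higher in A549 (HK2 and ALDOC, beside 5.79% of all genes) and 0 lower (2.81%), and 1 higher in HCC827 (FBP1, beside 4.65%) and 0 lower (3.08%). The genes at least 2-fold higher in A549 made a larger share of the 33 than of all genes, those at least 4-fold higher there a like share and the others a smaller one, and nothing particular to the list is read from these few genes.

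The promoters of 6 genes are shown first, because of the bases ACGTG, a form of the HIF1 recognition core and called the core below. ACGTG was present in most of the genes that were at least 2-fold higher in A549-myr-AKT1 and in some that were not. RefSeq windows (GRCh38.p14) of 250 bases before to 50 bases after the start were at hand for 31 of the 34 genes, the 3 without one being SLC2A3, PFKFB2 and SLC16A1. ALDOC, ENO2, PGK1 and HK2 are among the genes at least 2-fold higher in A549-myr-AKT1. LDHA has the most matches to ACGTG of the 6 shown but was not higher there, and ENO1 has no match to it. The form GCGTG, which occurs in the printed ENO1 bases, was not searched. The bases before the start are printed in the direction of the gene, with matches to ACGTG or its reverse complement CACGT in capitals, and where a pair of matches overlaps, the whole E-box CACGTG is in capitals. Where a gene has 2 windows (HK2 and LDHA), the one with more matches is shown.
The ALDOC promoter (chr17:28576896-28577145, minus strand) holds an E-box 240 bases and a further core match 28 bases before the start.
ALDOC: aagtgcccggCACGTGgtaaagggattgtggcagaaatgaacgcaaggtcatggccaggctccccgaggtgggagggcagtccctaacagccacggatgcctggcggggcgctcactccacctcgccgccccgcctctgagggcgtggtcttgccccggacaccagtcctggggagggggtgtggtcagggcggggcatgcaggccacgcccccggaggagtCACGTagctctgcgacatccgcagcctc
The ENO2 promoter (chr12:6914330-6914579, plus strand) holds 1 core match, 118 bases before the start.
ENO2: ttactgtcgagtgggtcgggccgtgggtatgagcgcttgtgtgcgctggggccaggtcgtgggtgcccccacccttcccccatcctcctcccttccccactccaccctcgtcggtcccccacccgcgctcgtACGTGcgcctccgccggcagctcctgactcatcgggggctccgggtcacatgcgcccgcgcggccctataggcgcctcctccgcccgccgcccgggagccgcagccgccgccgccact
The PGK1 promoter (chrX:78103998-78104247, plus strand) holds core matches 202 and 183 bases before the start, and its remaining match, at base 29 after the start, lies outside the printed stretch.
PGK1: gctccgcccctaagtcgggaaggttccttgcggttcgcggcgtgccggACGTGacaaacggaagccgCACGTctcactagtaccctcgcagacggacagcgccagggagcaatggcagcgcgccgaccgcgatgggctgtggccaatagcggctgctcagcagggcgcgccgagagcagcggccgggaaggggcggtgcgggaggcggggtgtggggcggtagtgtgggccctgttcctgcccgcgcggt
The HK2 window shown (chr2:74834920-74835169, plus strand) holds E-boxes 194 and 149 bases before its start. The other HK2 window (chr2:74833877-74834176), which spans the annotated start of the gene, has 2 core matches and 0 E-boxes.
HK2: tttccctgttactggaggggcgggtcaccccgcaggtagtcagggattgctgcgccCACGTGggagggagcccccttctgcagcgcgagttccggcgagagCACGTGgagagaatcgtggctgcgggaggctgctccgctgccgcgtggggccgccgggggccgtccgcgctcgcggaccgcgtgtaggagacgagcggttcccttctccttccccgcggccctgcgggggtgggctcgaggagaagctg
The LDHA promoter (chr11:18394313-18394562, plus strand) holds E-boxes 185 and 87 bases and a further core match 73 bases before the start.
LDHA: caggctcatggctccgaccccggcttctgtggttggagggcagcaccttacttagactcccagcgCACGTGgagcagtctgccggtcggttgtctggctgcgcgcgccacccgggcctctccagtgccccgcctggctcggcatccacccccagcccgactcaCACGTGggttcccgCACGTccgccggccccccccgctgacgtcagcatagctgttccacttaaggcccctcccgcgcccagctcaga
The ENO1 promoter (chr1:8878687-8878936, minus strand) holds neither ACGTG nor CACGTG in its window.
ENO1: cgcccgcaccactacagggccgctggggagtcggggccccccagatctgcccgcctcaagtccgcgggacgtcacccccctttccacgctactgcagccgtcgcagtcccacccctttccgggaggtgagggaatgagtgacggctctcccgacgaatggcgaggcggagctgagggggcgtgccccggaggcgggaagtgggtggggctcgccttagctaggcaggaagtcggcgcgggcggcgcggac

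Both motifs were searched on both strands, and every CACGTG also counts as 2 overlapping matches to the core. The core was in 20 of the 62 windows of these genes (32.3%) beside 21.4% of all 35116 windows, and in 16 of the 31 genes beside 24.9% of all 27305 genes. The genes of the list have more windows each than genes in general, so the shares of windows are the closer comparison. CACGTG was in 7 of the 62 windows (11.3%) beside 7.26% of all windows. Among the 7 genes at least 2-fold higher in A549-myr-AKT1, 6 held the core in some window and PFKFB4 did not. SLC16A3 and PDK1 also have windows without it. The share among all genes at least 2-fold higher there is not given here, so nothing particular to the 7 is read from this count. Of the 3 genes with a window that were at least 2-fold higher in HCC827-myr-AKT1, 0 held it, nor did ENO1 or PKM, which were at least 2-fold lower there. A match is a description of these letters in this window and not a binding site.

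Of the glucose transporter transcripts, SLC2A1 ran in opposite directions in the 2 lines and SLC2A3 was higher in both. SLC2A1, which encodes the basal glucose transporter GLUT1, had normalized counts of 3805 in A549-myr-AKT1 against 2019 in A549-vector, and 2997 in HCC827-myr-AKT1 against 4912 in HCC827-vector. It was thus higher with myr-AKT1 in A549, by 0.91 on the log2 scale (0.84 to 0.99), and lower in HCC827, at -0.71 (-0.78 to -0.64). SLC2A3, which encodes the high-affinity transporter GLUT3, had 6850 and 5109 normalized counts in A549-myr-AKT1 and A549-vector and only 20.1 and 8.74, from 16 and 11 reads, in the corresponding HCC827 libraries. Its log2 fold change was 0.42 (0.37 to 0.48) in A549 and 1.20 in HCC827, where the interval from 0.01 to 2.46 nearly reaches 0. In HCC827-myr-AKT1 and HCC827-vector, 8 and 7 reads were assigned to pseudogenes of SLC2A3, up to 38.9% of the reads of the gene and its pseudogenes together, so this value is uncertain.

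Of the hexokinase genes of the list (HK1 and HK2), whose enzymes phosphorylate glucose, HK2, the inducible isoform, differed more between the lines. HK2 had 597 normalized counts in A549-myr-AKT1 against 116 in A549-vector, and 1632 in HCC827-myr-AKT1 against 1948 in HCC827-vector. That is 5.14-fold higher in A549 (log2 2.36, 2.08 to 2.65) and slightly lower in HCC827 (-0.26, -0.35 to -0.16). In RPKM, HK2 was 22.6-fold higher in HCC827-vector than in A549-vector, so that the A549 gene remained below both HCC827 libraries even with myr-AKT1. The constitutive isoform HK1 had 4797 against 2559 normalized counts in A549 and 2474 against 2472 in HCC827. Its log2 fold change was 0.91 (0.84 to 0.98) in A549, and in HCC827 the interval from -0.08 to 0.08 held 0. HKDC1, a further hexokinase gene from the wider lists, was picked after its values were seen. It had 3007 against 2477 normalized counts in A549 and 1076 against 1855 in HCC827. The log2 fold changes of HKDC1 were 0.28 (0.20 to 0.36) and -0.79 (-0.90 to -0.67).

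Of the other upper glycolytic enzymes, the isoforms of phosphofructokinase, the committed step, stayed within 2-fold in both lines. PFKP, the main phosphofructokinase per exon length in all 4 libraries, had 10477 against 12218 normalized counts in A549 and 2849 against 3694 in HCC827, with log2 fold changes of -0.22 (-0.26 to -0.18) and -0.37 (-0.45 to -0.30). PFKL was at 0.14 in A549 and -0.46 in HCC827, PFKM at 0.38 and 0.02, and GPI, the isomerase of the preceding step, at 0.45 and -0.21. The interval of PFKM in HCC827 held 0.

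Aldolase, which splits the 6-carbon sugar, showed the widest difference of all 34 genes, in its ALDOC isoform in A549. ALDOC had 2132 normalized counts in A549-myr-AKT1 against 199.98 in A549-vector, and 868 in HCC827-myr-AKT1 against 507 in HCC827-vector. It was thereby 10.7-fold higher with myr-AKT1 in A549 (log2 3.41, 3.22 to 3.62) and 1.71-fold higher in HCC827 (0.78, 0.62 to 0.93). ALDOA, the isoform that predominates in most tissues, had 3677 against 2788 in A549 and 3000 against 2525 in HCC827, log2 fold changes of 0.40 (0.33 to 0.47) and 0.25 (0.17 to 0.33). As 42.8% of the ALDOA exon bases are shared with the overlapping gene ENSG00000285043 on the same strand, its level is uncertain.

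The PFKFB enzymes set the level of fructose 2,6-bisphosphate, the activator of phosphofructokinase, and PFKFB3 and PFKFB4 differed in direction between the lines while PFKFB2 did not. PFKFB3, the most abundant of them per exon length in every library, had 13584 against 10014 normalized counts in A549 and 1283 against 2529 in HCC827. It was 0.44 higher on the log2 scale in A549 (0.40 to 0.48) and lower in HCC827 at -0.98 (-1.08 to -0.88). PFKFB4 had 532 against 204 in A549 and 808 against 1046 in HCC827, for log2 fold changes of 1.38 (1.15 to 1.61) and -0.37 (-0.51 to -0.24). PFKFB2, known as a direct substrate of AKT at the protein level, had 1144 against 905 in A549 and 1523 against 802 in HCC827. It was higher with myr-AKT1 in both, by 0.34 (0.21 to 0.47) and 0.93 (0.80 to 1.05).

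Lower glycolysis contains the most abundant transcripts of the list, and within it the enolase isoforms separated in both lines. GAPDH, the highest gene of the list in every library, had 157771 against 176857 normalized counts in A549 and 132530 against 159394 in HCC827, with log2 fold changes of -0.16 and -0.27. PGK1, the first enzyme of the pathway to make ATP, had 41846 against 17793 in A549 and 38103 against 43435 in HCC827. It was 2.35-fold higher in A549-myr-AKT1 (log2 1.23, 1.21 to 1.26), where it had 267 RPKM beside 341 and 368 RPKM in the HCC827 libraries, and slightly lower in HCC827 (-0.19, -0.21 to -0.17). Scaling by GAPDH, which removes the size factor, left a log2 change in the PGK1 to GAPDH ratio of 1.40 in A549 (1.37 to 1.43) and 0.08 in HCC827 (0.05 to 0.10).

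ENO1, the ubiquitous enolase, had 44082 against 67387 normalized counts in A549 and 34462 against 73198 in HCC827. In RPKM both myr-AKT1 libraries were below both vector libraries, with log2 fold changes of -0.61 (-0.63 to -0.59) and -1.09 (-1.11 to -1.07). ENO2, known as the neuronal enolase, went the other way, with 2114 against 575 in A549 and 1593 against 807 in HCC827. Here both myr-AKT1 libraries were above both vector libraries in RPKM, with log2 fold changes of 1.88 (1.75 to 2.01) and 0.98 (0.86 to 1.10). ENO3, the muscle isoform, was scarce, with 377 against 262 in A549 and 102 against 50.9 in HCC827, log2 fold changes of 0.52 (0.29 to 0.75) and 1.003 (0.51 to 1.499).

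PKM, a pyruvate kinase gene, had 98869 against 75474 normalized counts in A549 and 34496 against 70279 in HCC827. It was higher in A549-myr-AKT1 by 0.39 (0.38 to 0.40) and lower in HCC827-myr-AKT1 at -1.03 (-1.05 to -1.01). The files give 1 value per gene, so the M1 and M2 splice forms of PKM could not be separated. PGAM1, a mutase, had 9232 against 9419 in A549, where the interval from -0.07 to 0.01 held 0, and 4214 against 6832 in HCC827, at -0.70 (-0.76 to -0.64). TPI1, which interconverts the triose phosphates, had log2 fold changes of 0.13 and -0.33.

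For lactate, the dehydrogenase genes were lower and the transporter genes higher with myr-AKT1 in A549, LDHA only by a margin that depended on the scaling, while all 4 genes were lower in HCC827. LDHA, whose subunit favours the making of lactate, had 53014 against 54217 normalized counts in A549 and 27698 against 45784 in HCC827. Its log2 fold change of -0.03 in A549 (-0.05 to -0.01) turned to 0.070 with size factors estimated over all 4 libraries, while in HCC827 it was -0.73 (-0.75 to -0.70). LDHB had 6767 against 10360 in A549 and 5392 against 8549 in HCC827, lower with myr-AKT1 in both at -0.61 (-0.66 to -0.57) and -0.66 (-0.72 to -0.61). Of the LDHB exon bases, 33.4% are shared with ENSG00000285854 on the same strand.

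SLC16A3, which encodes the lactate exporter MCT4 of glycolytic cells, had 4290 normalized counts in A549-myr-AKT1 against 1121 in A549-vector, and 2767 in HCC827-myr-AKT1 against 3081 in HCC827-vector. It was 3.83-fold higher in A549 (log2 1.94, 1.84 to 2.03) and slightly lower in HCC827 (-0.16, -0.23 to -0.08). SLC16A1, which encodes the widespread transporter MCT1, had 3218 against 2792 in A549 and 4574 against 4882 in HCC827, log2 fold changes of 0.20 (0.13 to 0.28) and -0.09 (-0.15 to -0.03).

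Among the genes that decide whether pyruvate enters mitochondria, the PDK kinases, which inhibit pyruvate dehydrogenase, were higher in A549 without exception. PDK1 had 1347 normalized counts against 562 in A549 and 1957 against 3160 in HCC827. It was 2.39-fold higher in A549-myr-AKT1 (log2 1.26, 1.12 to 1.40) and lower in HCC827-myr-AKT1 at -0.69 (-0.78 to -0.61). PDK4, which is raised in fasting in many tissues, had 20675 against 15602 in A549 and 391 against 709 in HCC827, log2 fold changes of 0.41 (0.38 to 0.44) and -0.86 (-1.05 to -0.67). The order of these kinases differed between the lines, since in RPKM PDK4 was 16.3-fold higher in A549-vector than in HCC827-vector and PDK1 was 7.58-fold higher in HCC827-vector.

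PDK3 had 5066 against 2834 normalized counts in A549 and 2296 against 1896 in HCC827, and it was the only PDK gene higher with myr-AKT1 in both lines beyond counting error, by 0.84 (0.77 to 0.90) and 0.28 (0.19 to 0.36). PDK2 had log2 fold changes of 0.44 and -0.05, the latter with an interval that held 0. PDHA1, the catalytic subunit that these kinases phosphorylate, was at -0.0022 (-0.06 to 0.06) in A549 and -0.30 (-0.41 to -0.18) in HCC827. The subunits of the mitochondrial pyruvate carrier went apart in A549, where MPC1 was at 0.48 (0.06 to 0.91) and MPC2 at -0.31 (-0.39 to -0.22). MPC2 had 2090 against 2583 normalized counts there and 1007 against 934 in HCC827, where its interval held 0, while MPC1 in HCC827 was at 0.45 (0.13 to 0.77).

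The 2 genes of gluconeogenesis stood out in HCC827. FBP1, whose enzyme opposes phosphofructokinase, had 493 normalized counts in HCC827-myr-AKT1 (392 reads) against 78.7 in HCC827-vector (99 reads), 6.27-fold higher (log2 2.65, 2.33 to 2.98). In A549 it had 0 reads in A549-myr-AKT1 and 1 in A549-vector, both within the floor of 3 reads that a count of 0 allows, so no fold is given. PCK2, the mitochondrial enzyme that turns oxaloacetate into phosphoenolpyruvate, had 877 against 696 in A549 and 541 against 166 in HCC827. It was higher with myr-AKT1 in both lines, by 0.33 (0.19 to 0.48) in A549 and by 1.70 (1.46 to 1.95) in HCC827.

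The isoform make-up of a step can be compared without any size factor, as the share of the reads per kilobase of exon that each isoform gene takes within its step, or as the change in the ratio of a pair of genes. A step holds genes of the list only, so the shares are among these. HKDC1 and the monocarboxylate transporter genes SLC16A4 and SLC16A7, for example, are not counted. The share of ALDOC in the aldolase step was 45.9% with myr-AKT1 and 9.51% with vector in A549, and 29.8% and 22.7% in HCC827. Dividing by the length of exons shared with no other gene of the strand, these 4 shares were 32.7%, 5.67%, 19.5% and 14.4%. This changes the length but not the reads, so with the level of ALDOA uncertain, the size of the ALDOC share is uncertain either way. The ALDOC to ALDOA ratio changed by 3.02 on the log2 scale in A549 (2.81 to 3.23) and by 0.53 in HCC827 (0.35 to 0.70).

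In the enolase step the share of ENO2 was higher with myr-AKT1 in both lines. ENO2 took 5.47% of the step with myr-AKT1 and 1.03% with vector in A549, and 5.31% and 1.32% in HCC827. The ENO2 to ENO1 ratio was thus 5.62-fold higher in A549 (log2 2.49, 2.36 to 2.62) and 4.19-fold higher in HCC827 (2.07, 1.95 to 2.19). ENO1 nevertheless remained the dominant enolase, at 93.6% to 98.6% of the step in the 4 libraries.

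Monocarboxylate transport changed in A549 and hardly in HCC827, while the hexokinase step changed in opposite directions, less so in HCC827. SLC16A3 took 47.8% of its step in A549-myr-AKT1 against 21.6% in A549-vector, and 29.4% against 30.3% in HCC827. The SLC16A3 to SLC16A1 ratio changed by 1.73 (1.61 to 1.85) in A549, whereas in HCC827 the interval from -0.16 to 0.03 held 0. HK2 took 12.6% against 5.01% in A549 and 43.4% against 47.8% in HCC827, with changes of the HK2 to HK1 ratio of 1.45 (1.17 to 1.74) and -0.26 (-0.38 to -0.13).

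The 6-phosphofructo-2-kinase step had the reverse of the pattern of monocarboxylate transport. PFKFB2 took 30.4% of the step in HCC827-myr-AKT1 against 11.9% in HCC827-vector, and 4.64% against 5.05% in A549. Its ratio to PFKFB3 changed by 1.90 (1.75 to 2.06) in HCC827, while in A549 the interval from -0.23 to 0.03 held 0. LDHA took 79.5% of its step with myr-AKT1 and 72.2% with vector in A549, and 71.8% and 72.6% in HCC827. The LDHA to LDHB ratio accordingly changed by 0.58 (0.53 to 0.63) in A549 and by -0.06 (-0.12 to -0.0043) in HCC827. Among the PDK genes in HCC827, PDK3 took 32.4% against 20.3% and PDK4 21.2% against 29.1%, whereas PDK4 held 89.6% and 91.7% in the A549 libraries. These shares depend on the exon length used. With reads not divided by length, PDK3 took 46.3% against 31.2% and PDK4 7.90% against 11.6% in HCC827. PDK4 then held 74.1% and 79.6% in A549.

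Setting the 2 lines side by side, 13 of the 33 genes that passed the minimum in both were higher in A549-myr-AKT1 and lower in HCC827-myr-AKT1 with counting intervals that left out 0. These were SLC2A1, HK2, GPI, PFKL, PFKFB3, PFKFB4, TPI1, PGK1, PKM, SLC16A1, SLC16A3, PDK1 and PDK4. Among all 15704 genes past the minimum in both lines, 7.39% had this pattern, and 0 of the 33 had the opposite one, which 7.27% of all genes had. Counting intervals are narrow for abundant genes, so the same count was made among genes with a mean of 1000 or more in both lines, where 9 of 22 genes of the list and 9.79% of 4393 genes had the pattern. Of the same 22 genes, 4 were higher in both lines (19.4% of 4393), 5 lower in both (38.3%), and 0 lower in A549 and higher in HCC827 (10.4%). A further 9 genes were higher in both lines (SLC2A3, PFKFB2, ALDOA, ALDOC, ENO2, ENO3, PDK3, MPC1 and PCK2), beside 18% of all genes. Another 5 were lower in both (PFKP, GAPDH, ENO1, LDHA and LDHB), beside 24.1%. Whether the lines differ in their response was not tested, as each has 1 library per condition.

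The genes that were at least 2-fold higher in A549-myr-AKT1 began at lower levels in A549-vector than in HCC827-vector. All 7 genes at least 2-fold higher in A549-myr-AKT1 were lower in CPM in A549-vector than in HCC827-vector, as were 67.4% of the 1805 genes of any kind that were at least 2-fold higher there and past the minimum in both lines, 63.6% of the 33 genes and 51.9% of all 15704. Both quantities use the A549-vector library, so an error in that library would move them together. Apart from HK2 and PDK1, PFKFB4 showed the largest gap of the 7, at 6.90-fold higher in HCC827-vector. Of the 4 genes at least 2-fold higher in HCC827-myr-AKT1, SLC2A3, ENO3 and PCK2 were lower in HCC827-vector than in A549-vector. SLC2A3 had 24.1 RPKM in A549-vector and 0.0555 RPKM, from 11 reads, in HCC827-vector. FBP1 went the other way, at 121.5-fold higher in HCC827-vector. The share among all genes is not given for HCC827, so nothing is read from these 4.

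As a share of all recovered reads, the 34 genes together made up 1.95% in A549-myr-AKT1 (95% Clopper-Pearson interval 1.94 to 1.95) and 1.80% in A549-vector (1.79 to 1.80). In HCC827 they made up 1.73% with myr-AKT1 (1.72 to 1.74) and 2.302% with vector (2.296 to 2.307). The total therefore was higher with myr-AKT1 in A549 and lower in HCC827, as the medians were.

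A fit over all 4 libraries asked which genes were changed by myr-AKT1 on average over the 2 lines. With limma on log2(normalized count + 1) and cell line as a block, which leaves 1 residual degree of freedom, 0 of the 34 genes had an adjusted p under 0.05, beside 1.29% of all 19314 genes higher and 1.73% lower. At an unadjusted p under 0.05, 3 were higher and 2 lower, beside 9.17% and 9.24% of all genes. ENO2 came nearest, with a log2 fold change of 1.43 (SE 0.307), higher in 2 of 2 lines, and an adjusted p of 0.0545 in limma. ALDOC followed with 2.09 (SE 0.554, higher in 2 of 2) and an adjusted p of 0.0974, then ENO1 with -0.85 (SE 0.315, lower in 2 of 2) and 0.205 and LDHB with -0.64 (SE 0.240, lower in 2 of 2) and 0.210. PCK2 was at 1.02 (SE 0.397, higher in 2 of 2) with an adjusted p of 0.227. DESeq2's Wald test on the recovered reads called 2 of the 34, ALDOC and ENO2, both higher, and edgeR's quasi-likelihood test called 0.

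A set of 7 wider lists of related genes gives the surroundings of the pathway. Of the other genes of glucose and hexose handling, 5 of 18 were at least 2-fold higher and 1 lower in A549 (15.1% and 9.87% of all genes), and 5 of 17 higher and 0 lower in HCC827 (14.1% and 12.4%). PCK1, the cytosolic counterpart of PCK2, had 1105 normalized counts in A549-myr-AKT1 and 6.99 in A549-vector (log2 7.31, 6.32 to 8.52) and 0 reads in both HCC827 libraries. The facilitative transporter genes SLC2A12 and SLC2A6 were higher in both lines, SLC2A12 by 1.95 and 2.47 and SLC2A6 by 1.33 and 1.94 in A549 and HCC827, and SLC2A10 was higher in HCC827 by 2.95 (2.62 to 3.30). PGM2, a phosphoglucomutase singled out here as the gene lower in A549, was at -1.03 and -0.82.

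The pentose phosphate pathway, which branches off after hexokinase, had 7 genes past the minimum in each line. Of these, 2 were at least 2-fold higher in HCC827, TKT and PGD, beside 14.1% of all genes, and 0 in A549, beside 15.1%, with too few genes to set apart from these shares. TKT, the transketolase, was at 0.0049 in A549 and 1.48 (1.45 to 1.51) in HCC827, and PGD, a dehydrogenase of its oxidative branch, was at -0.37 and 1.26 (1.19 to 1.33). RPIA was the gene at least 2-fold lower in A549, at -1.06. For glycogen, 2 of 14 genes were at least 2-fold higher in A549, close to the 15.1% of all genes, both encoding subunits that bring a phosphatase to glycogen, PPP1R3C at 2.54 (2.35 to 2.74) and PPP1R3B at 1.83 (1.68 to 1.98), and 0 of 14 were in HCC827. There EPM2A, which encodes a glycogen phosphatase and was picked after its values were seen, was at least 2-fold lower, at -1.31 (-2.27 to -0.44).

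Of the remaining genes of pyruvate and lactate, 1 of 17 was at least 2-fold higher in each line and 0 lower, and of the TCA cycle 0 of 17 genes in A549 and 1 in HCC827 passed 2-fold, all under the shares of all genes. The 1 in A549 for pyruvate and lactate was SLC16A7, which encodes a further monocarboxylate transporter, at 1.28 in A549 and -0.57 in HCC827, and the 1 in HCC827 was LDHD, with 42 reads against 0 in the HCC827 pair. In the TCA cycle IDH2 was at 0.06 and 1.27 (1.14 to 1.41).

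Among 14 regulators of glycolytic transcription and glucose uptake, TXNIP and ARRDC4 had the widest differences in both lines. TXNIP, whose protein restrains glucose uptake, had 3188 normalized counts against 115 in A549 and 20242 against 2278 in HCC827, log2 fold changes of 4.79 (4.54 to 5.05) and 3.15 (3.09 to 3.21). ARRDC4, its relative, was at 3.58 (3.17 to 4.02) and 3.24 (3.04 to 3.46). HIF1A was higher in A549 at 0.99 (0.96 to 1.01) and lower in HCC827 at -0.82 (-0.85 to -0.80), and MYC was lower in both, at -1.74 and -0.20.

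Of 15 HIF targets outside glycolysis, 15 were above 0 in A549 with a median of 1.06, and 8 were at least 2-fold higher, beside 48.2% of all genes above 0 and 15.1% at least 2-fold higher. In HCC827, 8 of 14 were above 0 with a median of 0.16, and 4 were at least 2-fold higher, beside 48.1% and 14.1% of all genes. CA9, a carbonic anhydrase and a common hypoxia marker, had 2106 against 126 normalized counts in A549 (log2 4.07, 3.82 to 4.32) and 6.29 against 0 in HCC827. EGLN3, whose prolyl hydroxylase senses oxygen, was at 2.64 in A549 and -0.85 in HCC827, while LOX and ADM were higher by 3.05 and 2.41 in HCC827 and by 0.85 and 0.67 in A549.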

How the data were processed

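RNA from 4 libraries, 1 for each cell line and construct, was sequenced by the authors on an Illumina instrument. The Methods describe polyA selection, while the labels describe removal of ribosomal RNA and a stranded kit. The reads were mapped by the authors with Bowtie2 2.3.5, which does not align across introns, to hg38 and counted with HTSeq 0.11.2, per the Methods and the submitters' processing notes. The Methods name RPKM, but in the deposited files the signal of a gene equals its reads over a size factor, which the authors estimated from the pair of libraries of a line. Dividing by the value of 1 read gave whole reads (tolerance 0.001) for 100% of genes with reads in both myr-AKT1 libraries and for all but 1 gene in each vector library. There were 0 columns of other samples. Recovered reads per library ranged from 16322183 to 33530317, so intervals are narrow for most of these genes and wide for SLC2A3 in HCC827.

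Symbols came from GENCODE release 44, with 297 of 60558 identifiers unmatched. RPKM, computed here, used the union of annotated exons and the recovered reads. Folds within a line carried no pseudocount, and counting intervals were 95% Clopper-Pearson. A floor of 3 reads was used. A gene passed the minimum when its normalized counts averaged 10 or more in the pair. For ratios and shares, reads were divided by exon length.

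The fit across lines used limma 3.58.1 on log2(value + 1) with a mean-variance trend, edgeR's filterByExpr and Benjamini-Hochberg adjustment over 19314 genes, and was tested on simulated data. On the recovered reads, edgeR 4.0.16 called 196 genes higher and 228 lower over all genes, and DESeq2 1.42.0 called 621 and 518. Other software was R 4.3.3, Python 3.11.15, numpy 2.4.6, scipy 1.17.1, pandas 2.3.3 and matplotlib 3.10.9.

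The 34 genes and the 7 wider lists were chosen with earlier results of these data known. Genes named from a wider list were at most the 4 with the largest absolute log2 fold change in either line at a mean of at least 50. Genes said to be picked or singled out are further ones. Genes of the 34 changed at least 1.5-fold in a line, or leading their step, are given with all values. Alternatives were other scalings (TMM, total reads, size factors over all 4 libraries), pseudocounts, minimums, a 4-fold threshold, pseudogene reads added, exon lengths, and other tools for the fit. The values of 2 genes of the wider lists are not reported here.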

Additional observations from a re-analysis of the deposited data

Results flagged for a closer look

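The 13 genes below were higher with myr-AKT1 in the A549 pair and lower in the HCC827 pair. This contrast between lines was not tested, since each line has 1 library per condition. The log2 fold change in A549 minus that in HCC827 was widest for HK2, at 2.62, followed by the lactate exporter gene SLC16A3 at 2.09 and the kinase gene PDK1 at 1.95. It was 1.75 for PFKFB4 and 1.63 for the glucose transporter gene SLC2A1. For PGK1, PFKFB3 and PKM the values were nearly the same, at 1.42 each, and PDK4 was at 1.26. Smaller differences were seen for GPI at 0.66, PFKL at 0.60, TPI1 at 0.47 and SLC16A1 at 0.30. All 13 had opposite signs in the 2 lines under each of the 3 other scalings. Scaled by GAPDH instead, PGK1 was above 0 in both lines, at 1.40 in A549 and 0.08 (0.05 to 0.10) in HCC827. The intervals did not all keep leaving out 0. Total recovered reads raised every HCC827 value by 0.0798, which takes the upper limits of SLC16A1 (-0.035) and SLC16A3 (-0.0793) above 0. Among all genes past the minimum in both lines, 7.39% had the same pattern.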

How the results depend on the processing

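The A549 median moved from 0.41 to 0.51 with size factors over all 4 libraries, a scaling that raised every A549 value, and the median of all genes, by 0.10 on the log2 scale. The list and all genes thus shifted alike. Under the same scaling LDHA in A549 turned from -0.03 to 0.070, and under it and under total recovered reads 1 gene was at least 2-fold lower in HCC827 in place of 2. The count at least 2-fold higher in A549 was 9 with size factors over all 4 libraries, and that in HCC827 ranged over the alternatives at this threshold from 3 to 6, the latter under total recovered reads, where the HCC827 median was -0.12. At a 4-fold threshold the counts were 2 higher in A549, 1 higher in HCC827 and 0 lower in HCC827. In the fit across lines, DESeq2 called 2 genes higher, and limma on all genes that had 1 or more reads in a library called 4 higher (ALDOC, ENO2, SLC16A3 and HK2) and 1 lower (ENO1), in place of 0. The fit averages over the lines, and SLC16A3 and HK2 were higher in A549 only, at -0.16 and -0.26 in HCC827. Over the alternatives the adjusted p of ENO2 ranged from 4.0e-04 to 0.999999 and that of ALDOC from 2.3e-07 to 0.999999. The causes were not tested. The change in the PFKFB4 share in HCC827 turned from 1.09 to -1.54 percentage points when reads were not divided by length. The labels give no replicate numbers, and the fit paired libraries by cell line. Without that block limma called 0 of all genes, with 2 of the 34 higher at an unadjusted p under 0.05. Leaving out a library leaves no residual degree of freedom and was not run. Depth limits SLC2A3 and FBP1 most, as 16 and 11 reads in HCC827 and at most 1 read in A549 stand behind them. Shares over exons of no other gene and a pseudocount of 0.1 in the fit, which called 0 of the 34 genes, were added after seeing the data.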

Other observations

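Genes next to the pathway were also seen to differ. PDP1, whose phosphatase switches pyruvate dehydrogenase back on and so opposes the PDK kinases, had 426 normalized counts in A549-myr-AKT1 against 456 in A549-vector and 3361 against 1705 in the HCC827 pair. Its log2 fold change of -0.10 in A549 had an interval (-0.29 to 0.10) that held 0, while in HCC827 it was 0.98 (0.90 to 1.06). SLC16A4, a member of the monocarboxylate transporter family, was higher in both lines, by 0.61 (0.58 to 0.65) and 0.93 (0.86 to 1.003). In glycogen, the branching enzyme gene GBE1 was at 0.81 (0.72 to 0.90) in A549 and -0.63 (-0.76 to -0.50) in HCC827. MLXIP, which encodes the glucose-responsive transcription factor MondoA and was picked after its values were seen, was higher in both lines, by 0.88 (0.75 to 1.01) and 0.94 (0.82 to 1.06). All of these rest on 1 library per condition, and the intervals cover the counting of reads alone.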
